A study of Mus musculus with 24 samples.

Results

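Potassium channel genes were described in the striatum of 24 mice, 1 RNA sequencing library per animal. The genes were the protein-coding entries of the read-count table whose symbol starts with Kcn and that had at least 240 reads summed over the 24 libraries. These were 81 of 94 such genes, in a table of 54532 genes. The 13 genes below the floor held 3 to 232 reads in all, and the highest of them was Kcnq1 with 232. All 81 also passed the filter on low counts used for testing.

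The mice were labelled C57BL/6 and had 4 genotypes of 6 animals each, 3 male (named replicates 1 to 3 here) and 3 female (replicates 4 to 6). WT carried neither allele, TyrobpKO lacked Tyrobp, Q175 was heterozygous for the Q175 allele, and Q175_TyrobpKO was heterozygous for Q175 and lacked Tyrobp. The Q175 allele is a knock-in that lengthens the CAG repeat of Huntingtin (Htt) in every cell, and Tyrobp encodes a signalling adaptor of microglial receptors. Age was not given. The design asked what the Q175 allele changes in the striatum with and without Tyrobp. Animal numbers carried a prefix that both Tyrobp-null groups shared and that no animal with intact Tyrobp had. TyrobpKO against WT and Q175_TyrobpKO against Q175 therefore followed the prefix fully. Another prefix was common to the 6 Q175 animals and WT replicate 3, so Q175 against WT followed it in part. If prefixes stand for separate breeding groups, these 3 comparisons cannot be freed of them. Of the comparisons between genotypes, only Q175_TyrobpKO against TyrobpKO was made among animals with the same prefix.

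Potassium channels let potassium leave the cell and so set the resting potential, shape the action potential and limit repetitive firing. In striatal projection neurons, the main output cells of the striatum, inward rectifiers hold the resting potential far below threshold, A-type channels built from Kcnd pore subunits and Kcnip subunits delay the first spike, and channels of the Kcnq family carry the muscarine-sensitive current. In glia, inward rectifiers and tandem-pore channels take up or pass potassium.

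Total counts ranged from 25.48 to 34.63 M per library, and the 81 genes together took 0.640% ± 0.0209 (SD, n = 6) of them in WT and 0.632% ± 0.0279 in TyrobpKO, against 0.558% ± 0.0272 for Q175 and 0.581% ± 0.0224 for Q175_TyrobpKO. Each Q175 library had a lower share than each WT library, and each Q175_TyrobpKO library a lower share than each TyrobpKO library. The labels held against the targeted gene: Tyrobp averaged 7.88 CPM ± 1.15 in WT and 8.68 CPM ± 2.09 in Q175, against 0.341 CPM ± 0.0926 in TyrobpKO and 0.260 CPM ± 0.0423 in Q175_TyrobpKO. CPM is the read count scaled to library size with TMM factors, and values are mean ± SD over 6 libraries. Htt, the gene that carries the Q175 repeat, was lower in Q175 than in WT (163.7 against 225.6 CPM, log2 fold change -0.46 ± 0.0568 SE, adjusted p = 3.019e-06). Adjusted p-values are from edgeR's quasi-likelihood test with Benjamini-Hochberg adjustment over the 19667 genes tested, and a gene was called where this p was under 0.05.

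Marker sums differed between libraries. The sum of 9 cortical markers ran from 134.3 to 1057 CPM between libraries, and that of 7 choroid plexus markers was 6022 CPM in Q175 replicate 3, 997.9 in Q175 replicate 5, and 1126 and 1167 in Q175_TyrobpKO replicates 4 and 6, against a median of 412 over all libraries. The 17 projection neuron markers, which define the labelled tissue, summed to 9928 to 15680 CPM in WT and 9172 to 14600 in TyrobpKO, against 7189 to 9676 for Q175 and 6300 to 9990 for Q175_TyrobpKO. Of these 17 markers, 14 were called lower in Q175 against WT, and 7 were lower for Q175_TyrobpKO against TyrobpKO. The 9 astrocyte markers summed to 4245 to 4642 CPM in WT and 3318 to 4122 in Q175, and to 4384 to 4645 CPM in TyrobpKO and 3475 to 3864 for the double mutant, without overlap in either Q175 comparison. In Q175 against WT, 1 astrocyte marker was called higher and 2 lower, 1 endothelial marker was lower and 2 choroid plexus markers were higher, with 0 called by edgeR on the other 8 cell type and region lists. Without Tyrobp, 2 oligodendrocyte, 2 astrocyte, 2 endothelial and 1 pericyte or smooth muscle marker were called lower with the Q175 allele. In whole tissue, fewer cells of a type and less RNA per cell cannot be told apart. The part of these marker differences in the channel results was not tested, apart from the relations and refits given below.

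Levels per length were compared in WT, as CPM per kilobase of gene length (RPKM). The inward rectifier Kcnj4 was highest at 94.5 RPKM ± 9.96 (SD, n = 6), followed by Kcnip2, the calcium-binding subunit of A-type channels, at 84.9 ± 8.72. These neighbours differed by less than the sum of their SDs. Next came the Kcnab2 (56.9 ± 6.27) and Kcnab1 (56.1 ± 7.78) subunits of Shaker-type channels, which did not differ beyond their spread, and the A-type pore subunit Kcnd2 (43.7 ± 6.08). The tandem-pore leak channel Kcnk1 stood at 40.4 ± 2.46 and the sodium-activated channel Kcnt1 at 31.9 ± 2.22. In the remaining groups the highest were Kcnh3 of the ether-a-go-go family (28.9 ± 2.63), the silent pore subunit Kcnf1 (17.1 ± 2.57) and the assembly regulator Kcnrg (0.537 ± 0.163). Of the 81 genes, 30 reached 10 RPKM and 14 were below 1 RPKM, down to 0.0642 for Kcnn4.

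**Figure D1:**
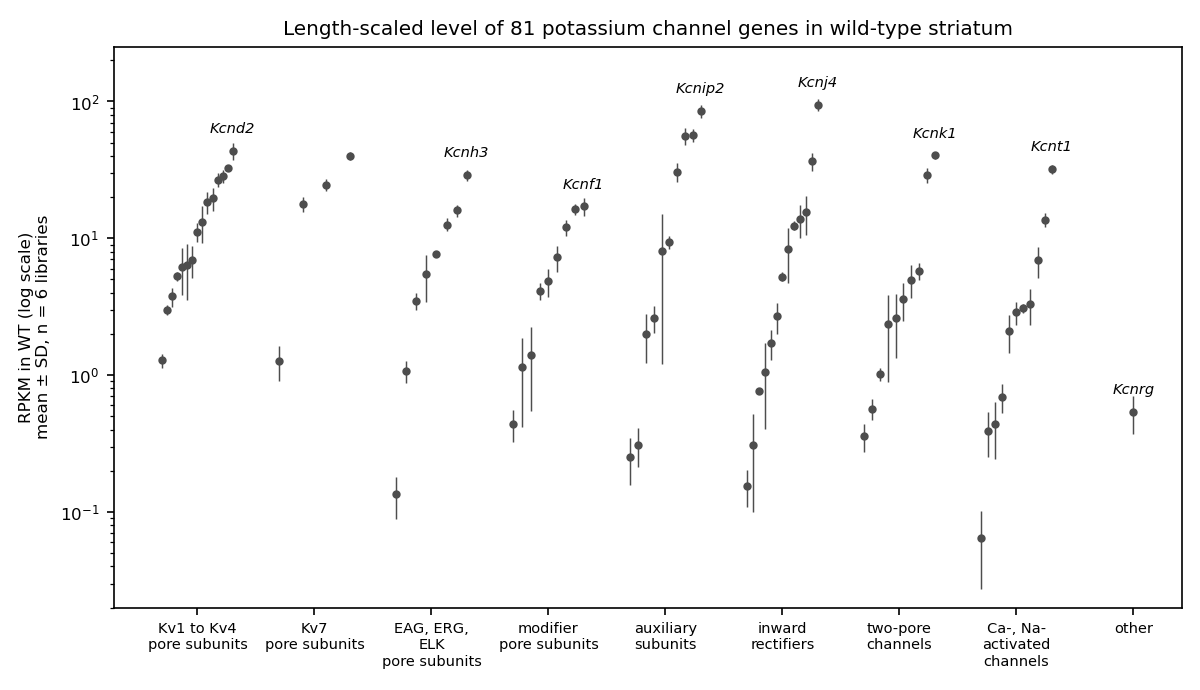
Length-scaled level (RPKM, log axis) of the 81 potassium channel genes in the 6 WT libraries, grouped by subfamily; points are means and bars SD. A gene that is named is the highest of its group, from 94.5 for Kcnj4 to 0.537 for Kcnrg.

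With Tyrobp intact, 14 of the 81 genes were lower and 2 higher in Q175 than in WT. The lower genes included Kcnip2, Kcnip3, Kcnab1, Kcnq5, Kcnh3, Kcnh4, Kcna1, Kcnj4, Kcnk1, Kcnk2, Kcnk5 and Kcnt1, and the higher ones Kcnh8 and Kcng1. The 16 are 19.75% of the 81, beside 9.63% of all genes tested (5.47% lower and 4.15% higher). The median log2 fold change was -0.14 over the 81 genes and 0.00729 over all genes tested, and 63 of the 81 values were below 0. Libraries of the genotypes did not overlap for 6 of the lower genes, among them Kcnip2, Kcnh4, Kcnq5, Kcnk2 and Kcnab1, and for Kcnh8 of the higher ones. Over all genes tested, 2.39% were lower and 1.69% higher without overlap.

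Most of the calls, but not all, lay among the abundant genes. With a mean of at least 100 CPM over all libraries, 11 of 18 channel genes were called (61.11%), beside 17.7% of all genes at that level. Between 10 and 100 CPM, 3 of 37 were called (8.108%, beside 11.5%), and below 10 CPM 2 of 26 (7.692%, beside 6.05%).

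**Figure D2:**
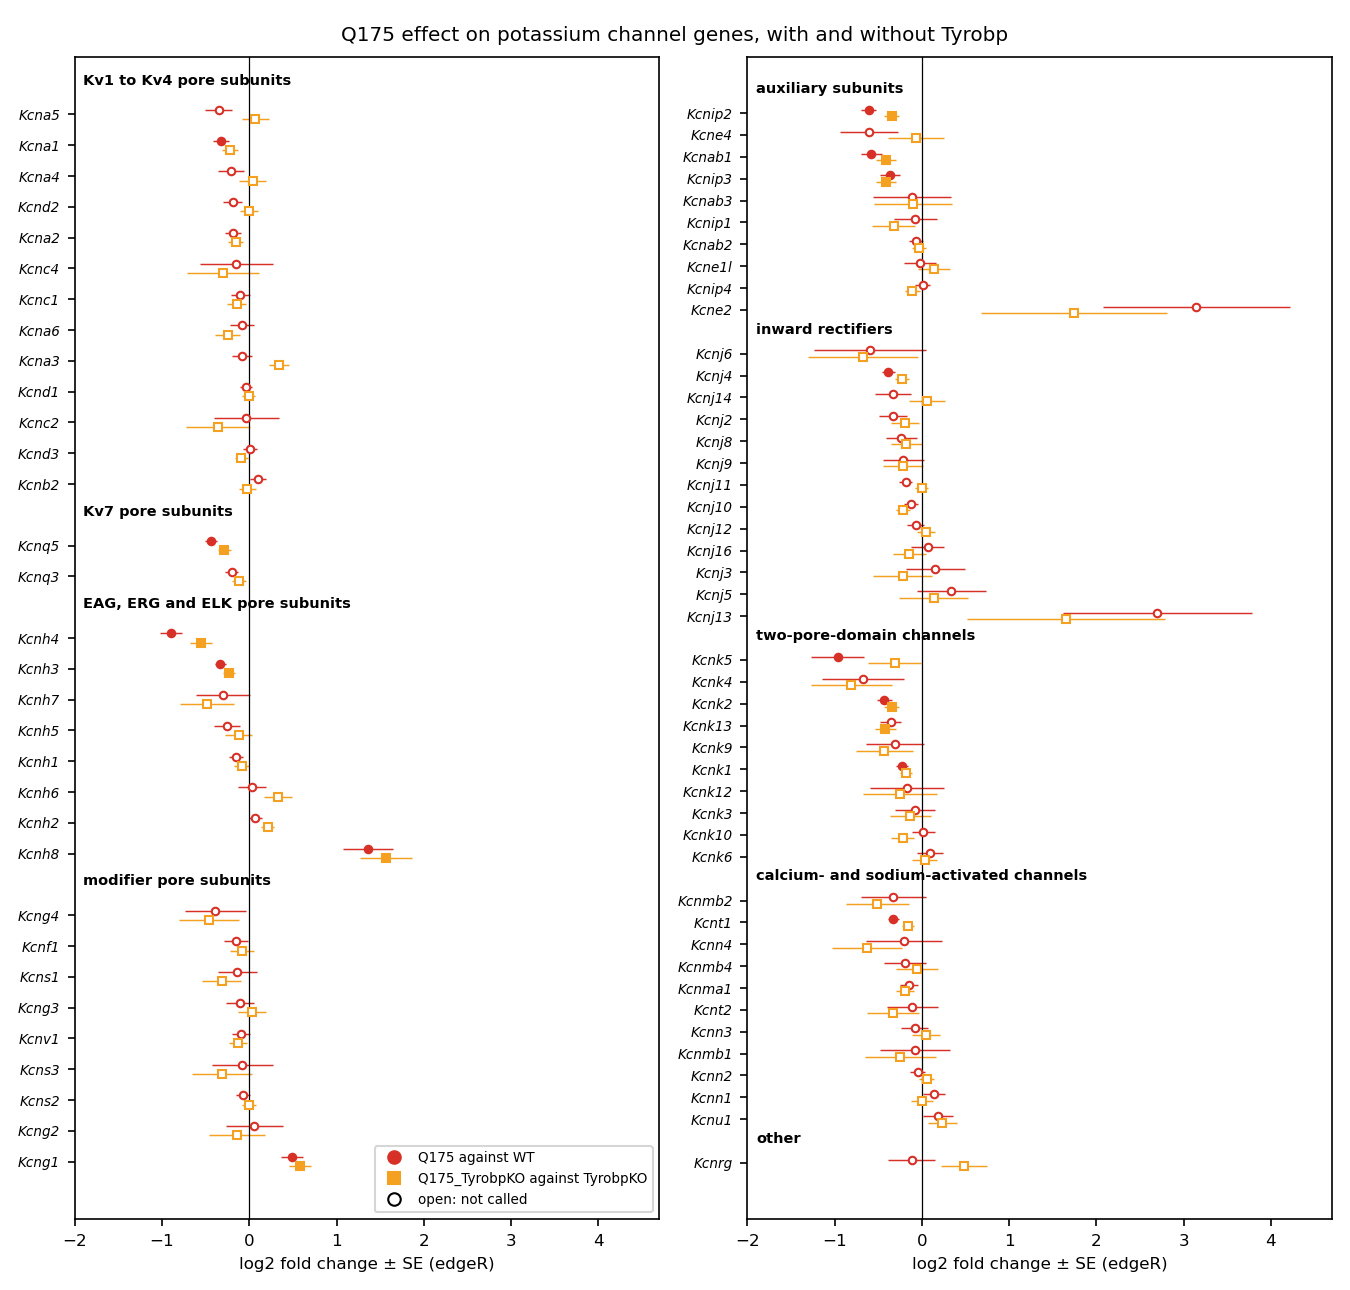
Log2 fold change ± SE (edgeR) of 77 of the 81 genes by subfamily, for Q175 against WT (circles) and Q175_TyrobpKO against TyrobpKO (squares); filled symbols passed the adjusted p threshold. Most values lie left of 0, Kcnh8 and Kcng1 lie right of it in both comparisons, and the far right points Kcne2 and Kcnj13 are open.

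Among auxiliary subunits, 3 of 10 fell in Q175 against WT. Kcnip2 (ENSMUSG00000025221, chromosome 19, 45791839 to 45816061, minus strand) had 242.2 CPM in its lowest, 306.5 in its median and 320.9 in its highest WT library, and 165.9, 198.3 and 217.7 CPM in Q175. The highest Q175 library lay below the lowest WT library. The log2 fold change was -0.61 ± 0.0867 (SE), a level 34.5% lower (adjusted p = 2.491e-05). Kcnab1, the beta subunit that gives Shaker-type channels fast inactivation, ran from 376.4 through 483.3 to 562.3 CPM in WT and from 276.8 through 339.2 to 352.1 in Q175, again without overlap (-0.58 ± 0.116, adjusted p = 0.00186). Kcnip3, a calcium-binding protein that is both a channel subunit and a transcriptional repressor, averaged 108.5 CPM ± 16.3 in WT and 84.2 ± 14.6 in Q175, with overlapping libraries (-0.37 ± 0.114, adjusted p = 0.0409).

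Kcnq5, a pore subunit of the muscarine-sensitive current, had a lowest, median and highest value of 115.5, 137.6 and 163.9 CPM in WT and 92.4, 99.4 and 109.2 in Q175, without overlap (-0.44 ± 0.0723, adjusted p = 0.000159). Kcnq3, of the same family, was not called (-0.20 ± 0.0767, adjusted p = 0.0977).

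In the ether-a-go-go family, 2 of 8 genes fell and 1 rose, and those 3 are the ELK genes, the subfamily that also opens near the resting potential. Kcnh4 (ENSMUSG00000035355, chromosome 11, 100740376 to 100759942, minus strand) had 51.3, 64.5 and 68.3 CPM in the lowest, median and highest WT library and 29.9, 32.0 and 44.5 CPM in Q175. No Q175 library reached the lowest WT library. The fold change was -0.89 ± 0.127 on the log2 scale, a level 46.2% lower (adjusted p = 5.37e-05). Kcnh3 averaged 166.2 CPM ± 15.2 in WT and 132.3 ± 11.4 in Q175 (-0.33 ± 0.0662, adjusted p = 0.00138), with overlap. Kcnh8 (ENSMUSG00000035580, chromosome 17, 52602709 to 52979194, plus strand) was much scarcer and moved the other way, from 0.391, 0.554 and 0.879 CPM in WT to 0.891, 1.53 and 2.66 CPM in Q175. The lowest Q175 library lay just above the highest WT library, and the level was 2.56-fold higher (log2 1.36 ± 0.289, adjusted p = 0.0024). The other 5 genes of the family (Kcnh1, Kcnh2, Kcnh5, Kcnh6 and Kcnh7) were not called.

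The bases upstream of the RefSeq start of Kcnh8, Kcnh4 and Kcnip2 are shown because these genes had the largest increase and the largest decreases with separate libraries. They are from the GRCm38.p6 assembly, 5′ to 3′ on the strand of the gene, in lower case with each CpG in capitals. Kcnh8 is chr17:52602459-52602708 on the plus strand, Kcnh4 is chr11:100759943-100760028 on the minus strand, limited to the bases before the start of the gene in the deposited table, and Kcnip2 is chr19:45816064-45816313 on the minus strand.
Kcnh8: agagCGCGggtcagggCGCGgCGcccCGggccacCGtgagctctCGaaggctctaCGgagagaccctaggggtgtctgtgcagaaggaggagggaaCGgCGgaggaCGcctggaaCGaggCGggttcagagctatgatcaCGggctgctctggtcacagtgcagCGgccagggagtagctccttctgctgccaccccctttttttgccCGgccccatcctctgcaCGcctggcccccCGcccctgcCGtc
Kcnh4: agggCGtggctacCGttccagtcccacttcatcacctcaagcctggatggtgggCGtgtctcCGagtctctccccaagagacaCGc
Kcnip2: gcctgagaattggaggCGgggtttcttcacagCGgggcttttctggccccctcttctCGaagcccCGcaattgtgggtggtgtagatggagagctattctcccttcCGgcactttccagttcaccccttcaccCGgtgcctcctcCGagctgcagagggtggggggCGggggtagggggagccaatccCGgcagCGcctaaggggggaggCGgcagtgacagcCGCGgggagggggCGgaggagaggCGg
They hold 20, 5 and 15 CpG in 250, 86 and 250 bases, and their GC content is 68.4%, 61.6% and 66.8%. The whole windows of 300 bases at these starts hold 21, 23 and 18 CpG. RefSeq windows of 300 bases (250 before and 50 after a start) were found for 59 of the 81 genes, 83 windows in all, with a median GC content of 59.67%, beside 52.67% over all 32851 windows. The motif TGACGTCA, read on both strands, was in 0 of the 83 windows and in 1.79% of all windows. Its first 5 letters TGACG were in 17 of the 83 (20.48%, beside 20.81%), and TATAAA was in 4 (4.819%, beside 13.62%). Of the genes lowered in either Q175 comparison, 10 of 15 had a window, and TGACG was in 1 of their 18 windows.

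Among pore subunits of the Kcna and Kcnd families, Kcna1, an axonal low-threshold channel, averaged 135.3 CPM ± 14.8 in WT and 108.3 ± 16.2 in Q175 (-0.32 ± 0.0904, adjusted p = 0.0228). Its libraries overlapped. Kcnd2 was not called (225.1 CPM ± 31.3 in WT and 197.3 ± 12.5 in Q175). Kcng1, a silent subunit that alters the gating of channels it joins, was the only called member of the 9 modifier genes and rose from a lowest, median and highest of 21.2, 34.1 and 40.5 CPM in WT to 39.9, 44.0 and 58.2 CPM in Q175. The top WT library overlapped the lowest Q175 library (log2 0.49 ± 0.125, adjusted p = 0.0137).

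Of 13 inward rectifiers, Kcnj4 alone was called, at 203.3 CPM ± 21.4 in WT and 155.9 ± 14.4 in Q175 (-0.38 ± 0.0774, adjusted p = 0.00148), with overlapping libraries. Of 10 tandem-pore channels, 3 fell. The mechanosensitive and lipid-sensitive Kcnk2 had 120.8, 141.6 and 167.9 CPM in WT and 84.2, 108.5 and 116.3 CPM in Q175, without overlap (-0.43 ± 0.0864, adjusted p = 0.00141). Kcnk1 averaged 90.2 CPM ± 5.50 in WT and 77.1 ± 8.18 in Q175 (-0.23 ± 0.0658, adjusted p = 0.0240). The scarce Kcnk5 averaged 1.22 CPM ± 0.281 in WT and 0.624 ± 0.332 in Q175 (-0.97 ± 0.308, adjusted p = 0.0441). Among 11 calcium-activated and sodium-activated channel genes, Kcnt1 was called, at 303.2 CPM ± 21.1 in WT and 242.1 ± 17.9 in Q175 (-0.33 ± 0.0677, adjusted p = 0.00196). The Kcnab1, Kcnh3, Kcnk1 and Kcnk2 genes overlap protein-coding or antisense genes in the deposited annotation. Kcnq5 and Kcnip3, and Kcnk13 among the calls without Tyrobp, overlap genes of other types. The counts of all these genes are less certain because use of strand in counting was not stated. Kcnip3 and Kcnk5 fell outside the naming rule of the 12 smallest p and were named because they complete the count.

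**Figure D3:**
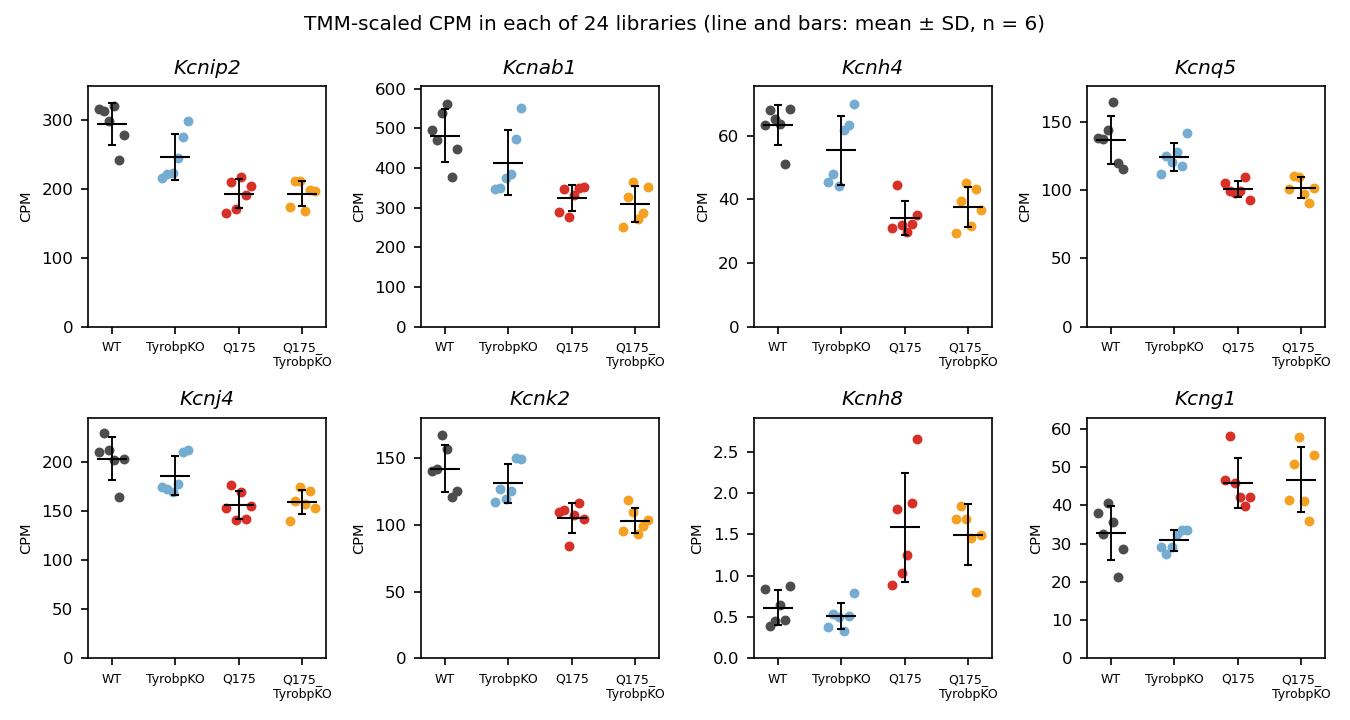
TMM-scaled CPM of 8 called genes in each of the 24 libraries by genotype; points are libraries, the line and bars are mean ± SD (n = 6). Kcnip2, Kcnab1, Kcnh4, Kcnq5 and Kcnk2 were called lower, and Kcnh8 and Kcng1 higher, in both Q175 comparisons, and Kcnj4 was called lower in Q175 against WT.

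Single libraries mattered for the weaker of these calls. Kcna1 missed the threshold without WT replicate 5 or without Q175 replicate 2, 3 or 4 (adjusted p from 0.0506 to 0.0604). Kcnk1 missed it without WT replicate 1, 2, 3 or 5 or Q175 replicate 2, 3 or 6 (0.0526 to 0.0737), and Kcnip3 without WT replicate 1, 2, 3 or 6 or Q175 replicate 2, 3, 4 or 6 (0.0561 to 0.101). Kcnk5 missed it without any of 15 libraries, among them WT replicates 1, 2, 3, 5 and 6, Q175 replicates 1, 2, 4 and 5, TyrobpKO replicates 3 to 6 and Q175_TyrobpKO replicates 1 and 5 (0.0501 to 0.123). The other 12 called genes passed without any 1 of the 24 libraries.

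Without Tyrobp, 8 of the 81 genes were lower and 2 higher with the Q175 allele, and the 2 were again Kcnh8 and Kcng1. The lower genes were Kcnh4, Kcnk2, Kcnip2, Kcnq5, Kcnh3, Kcnip3, Kcnab1 and Kcnk13. The 10 called genes of Q175_TyrobpKO against TyrobpKO are beside 5.86% of all genes tested (3.08% lower and 2.78% higher), and the median log2 fold change was -0.14 over the 81 genes and -0.00193 over all genes tested. Without overlap of libraries were 3 lower genes (Kcnip2, Kcnq5 and Kcnip3) and both higher ones, beside 2.27% and 2.22% of all genes.

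Kcnh8 had 0.336, 0.508 and 0.785 CPM in its lowest, median and highest TyrobpKO library and 0.798, 1.58 and 1.84 CPM in Q175_TyrobpKO. The groups were apart by a narrow gap, and the level was 2.96-fold higher (log2 1.56 ± 0.295, adjusted p = 0.00137). Kcng1 had 27.2, 30.9 and 33.6 CPM in TyrobpKO and 35.9, 46.1 and 57.8 CPM in Q175_TyrobpKO, also apart (0.59 ± 0.125, adjusted p = 0.0055). Kcnip2 had 216.1, 234.7 and 298.9 CPM in TyrobpKO and 168.2, 198.2 and 211.6 CPM in Q175_TyrobpKO (-0.35 ± 0.0866, adjusted p = 0.0146). Its double-mutant libraries lay below the TyrobpKO ones, which were themselves lower than WT on average.

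Kcnh4 averaged 55.5 CPM ± 10.8 in TyrobpKO and 37.6 ± 6.31 in Q175_TyrobpKO (-0.56 ± 0.127, adjusted p = 0.00892), with overlap. Kcnq5 averaged 123.8 CPM ± 10.2 and 101.7 ± 7.61 (-0.29 ± 0.0723, adjusted p = 0.0158). Kcnk2 averaged 131.5 CPM ± 14.6 and 103.4 ± 9.57 (-0.35 ± 0.0864, adjusted p = 0.0146). These 3 genes fell by less on the log2 scale than in Q175 against WT, and the difference between the effects was not called for any of them.

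Kcnip3 averaged 124.8 CPM ± 3.25 in TyrobpKO and 94.2 ± 16.03 in Q175_TyrobpKO (-0.41 ± 0.114, adjusted p = 0.0327). Kcnab1 averaged 413.3 CPM ± 81.6 and 309.0 ± 45.6 (-0.41 ± 0.116, adjusted p = 0.0340), and Kcnh3 averaged 168.2 CPM ± 10.5 and 142.9 ± 10.2 (-0.23 ± 0.0661, adjusted p = 0.0311). Kcnk13, a tandem-pore channel known from microglia, averaged 19.0 CPM ± 3.05 and 14.2 ± 2.22 (-0.42 ± 0.121, adjusted p = 0.0373). In Q175 against WT it was at -0.36 ± 0.121 and was not called by edgeR (adjusted p = 0.0629). There it passed with DESeq2, in males alone and with the 12 compared libraries alone. It also passed without WT replicate 5, TyrobpKO replicate 6 or Q175_TyrobpKO replicate 6 (edgeR adjusted p from 0.0301 to 0.0395). Kcnj4 was not called without Tyrobp (-0.23 ± 0.0773, adjusted p = 0.0868).

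More of these calls were lost on leaving out 1 library than with Tyrobp intact. Only Kcnh4, Kcnh8 and Kcng1 passed without any 1 of the 24 libraries. Kcnk2 missed without TyrobpKO replicate 5 or 6 (adjusted p 0.0521 and 0.0589), Kcnip2 also without Q175_TyrobpKO replicate 4 (0.0509 to 0.0595), and Kcnq5 without TyrobpKO replicate 6 (0.0665). Kcnh3 missed without TyrobpKO replicate 1, 2, 4, 5 or 6 or Q175_TyrobpKO replicate 1, 2, 4 or 6 (0.0515 to 0.0846). Kcnip3 missed without TyrobpKO replicate 1, 2, 3 or 5 or Q175_TyrobpKO replicate 2, 3 or 6 (0.0558 to 0.0816). Kcnab1 missed without WT replicate 1 or 2, TyrobpKO replicate 3, 5 or 6 or Q175_TyrobpKO replicate 1, 4 or 5 (0.0515 to 0.108). Kcnk13 missed without TyrobpKO replicate 1, 3, 4 or 5 or Q175_TyrobpKO replicate 2, 3, 4 or 6 (0.0594 to 0.108). Without TyrobpKO replicate 5, 4 of the 81 genes were called in all, without TyrobpKO replicate 6, 5 genes, and without Q175_TyrobpKO replicate 4, 6 genes. The share of all genes called in these fits is not given here, so nothing particular to the channel genes is read from them.

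The 2 comparisons of the Q175 allele share no library. All 16 genes called with Tyrobp intact had the same sign without it, beside 1838 of 1893 over all genes tested, a share close to that of the channel genes. Of the 16, 9 were called in both, which is 56.25% of the 16 and 90% of the 10. Over all genes tested, 783 were called in both, which is 41.36% of the 1893 and 67.91% of the 1153. Of the 81 genes, 64 had the same sign (79.01%), beside 69.4% of all genes tested. Across the 81 genes, which are not independent, Pearson's r of the log2 fold changes was 0.872 and Spearman's rho 0.613. Kcne2 and Kcnj13 carried part of this, and without them r was 0.763 and rho 0.583. Of the 17 genes called in either comparison, 13 had a smaller change without Tyrobp, beside 1604 of 2263 over all genes. Most of the 17 were chosen by their call in the first comparison, so nothing is read from this count.

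**Figure D4:**
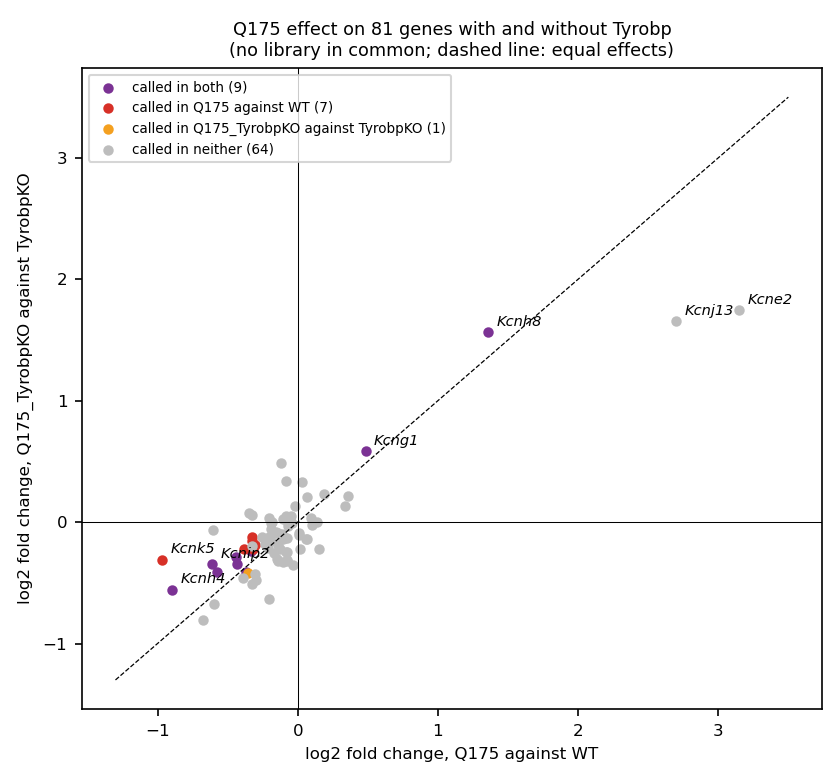
Log2 fold change of each of the 81 genes in Q175 against WT (horizontal axis) plotted with that in Q175_TyrobpKO against TyrobpKO (vertical axis), coloured by where it was called; the dashed line marks equal effects. The 9 genes called in both lie in the lower left and upper right, and the far right grey points, Kcne2 and Kcnj13, were called in neither.

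Kcne2 and Kcnj13 had the largest fold changes and were not called. Both are known from the choroid plexus epithelium, Kcne2 as an auxiliary subunit and Kcnj13 as an inward rectifier. Kcne2 had 0.213 to 0.603 CPM in WT, 0.310 to 23.96 in Q175, 0.146 to 1.20 in TyrobpKO and 0.112 to 2.72 in Q175_TyrobpKO. Its highest value was in Q175 replicate 3, the library with 6022 CPM of choroid plexus markers, where Kcnj13 also had its highest value, 13.5 CPM. The log2 fold change in Q175 against WT was 3.15 ± 1.07 for Kcne2 (adjusted p = 0.0703) and 2.70 ± 1.09 for Kcnj13 (adjusted p = 0.133).

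In TyrobpKO against WT, 0 of the 81 genes were called, beside 0.117% of all genes tested (0.0712% lower and 0.0458% higher). DESeq2 and limma-voom also called 0, and 6 genes had an unadjusted edgeR p under 0.05. The smallest p were those of Kcnip2 (295.2 CPM ± 30.3 in WT and 247.0 ± 33.7 in TyrobpKO, -0.26 ± 0.0865, adjusted p = 0.749) and Kcnd2 (225.1 ± 31.3 and 186.6 ± 29.7, -0.27 ± 0.106, adjusted p = 0.749). In the 12 males alone, Kcnip2 was called lower (-0.49, adjusted p = 0.0375), and in the 12 females it was at -0.04. The difference between the sexes in this comparison was not tested. The TyrobpKO libraries also had the higher cortical marker sums, 516.5 to 1057 CPM against 161 to 824.3 in WT, and all 17 projection neuron markers were below 0 on the log2 scale (median -0.28), with 0 of them called. With the log2 cortical marker sum as a term in the fit, Kcnip2 was at -0.20 ± 0.0804 and Kcnd2 at -0.16 ± 0.0806 (adjusted p = 0.997 for both). The part of the projection neuron markers was not tested.

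In Q175_TyrobpKO against Q175, 0 of the 81 genes were called, beside 0.158% of all genes tested (0.112% lower and 0.0458% higher), with 0 also by DESeq2 and limma-voom and 2 at an unadjusted edgeR p under 0.05. These were Kcne4, an auxiliary subunit at 0.539 CPM ± 0.250 in Q175 and 0.987 ± 0.417 in Q175_TyrobpKO (0.86 ± 0.332, adjusted p = 0.753), and Kcna3, a channel known from immune cells, at 6.76 CPM ± 1.11 and 8.02 ± 0.931 (0.25 ± 0.117, adjusted p = 0.827).

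The difference between the Q175 effects with and without Tyrobp was called for 0 of the 81 genes and 0.00% of all genes tested, by edgeR and likewise for the 81 by DESeq2 and limma-voom. At an unadjusted edgeR p under 0.05 there were 3. Among them was Kcna3 at 0.42 ± 0.166 (adjusted p = 0.999). The difference between the Q175 effects in females and males, averaged over Tyrobp genotypes, was likewise called for 0 of the 81 genes and 0.00% of all genes, with 1 at an unadjusted p under 0.05. The smallest p were those of Kcnj12 (-0.30 ± 0.126, female minus male) and Kcnh4 (-0.28 ± 0.146), with adjusted p = 0.998 for both. A p above the threshold does not show that the effects were equal.

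Kcnk6 and Kcnn4 lie within 15 Mb of Tyrobp on chromosome 7. Kcnk6, 1.192 Mb from Tyrobp, had 4.24 CPM ± 0.459 in WT and 4.45 ± 1.20 in TyrobpKO. Kcnn4 had 0.329 CPM ± 0.187 and 0.581 ± 0.183. Neither was called in any of the 6 tests.

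Within genotypes, many potassium channel genes varied along with the marker sums. Levels (log2 of CPM plus 0.5) were compared with the summed cortical and the summed projection neuron markers after removing genotype means, over 24 libraries with 100000 permutations within genotypes, for 19641 genes and 2 marker sums. A relation was counted where both Pearson's r and Spearman's rho had an adjusted p under 0.05, adjusted over the 19641 genes. With the cortical markers, 32 of the 81 genes went up and 8 down (49.38%), beside 9.06% and 5.67% of all genes. With the projection neuron markers, 13 went up and 33 down (56.79%), beside 7.08% and 8.43%. The marker sums were themselves opposed (r = -0.73, rho = -0.79, permutation p = 5e-05 and 1e-05, the second being the smallest that 100000 permutations can give), so the relations are not independent. In all, 48 of the 81 genes had a relation to at least 1 sum.

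Cortical markers were followed most closely by Kcnk9, Kcnt2, Kcnc4 and Kcnj6. Kcnk9 is a tandem-pore channel of the acid-sensitive kind, Kcnt2 a sodium-activated channel, Kcnc4 a Kcnc pore subunit and Kcnj6 a G-protein-gated inward rectifier. Pearson's r was 0.976, 0.972, 0.969 and 0.955, rho was 0.966, 0.964, 0.981 and 0.954, and each had a permutation p of 1e-05 (adjusted p = 0.000279 for r). Without the 2 libraries farthest from the median marker sum, r was 0.970, 0.965, 0.966 and 0.939. Kcnk9 ran from 26.8 to 88.0 CPM within Q175 alone, a wider range than its difference between genotype means (61.4 CPM in WT and 49.7 in Q175). By subfamily, 6 of 10 tandem-pore genes, 4 of 13 inward rectifiers and 5 of 9 modifier genes went up with cortical markers. Of the G-protein-gated inward rectifiers, Kcnj3, Kcnj6 and Kcnj9 did so and Kcnj5 (r = -0.29) had no counted relation.

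Ranked by Pearson's r, projection neuron markers were followed most closely by Kcnab1 (r = 0.946, rho = 0.950), Kcnd2 (0.908 and 0.923), Kcnip2 (0.899 and 0.840) and Kcna4 (0.883 and 0.880). Each had a permutation p of 1e-05 (adjusted p = 0.000385 for r). The order by rho was not the same. Without the 2 farthest libraries r was 0.931, 0.894, 0.880 and 0.861. Kcnd2 and Kcna4 are pore subunits of A-type current, but Kcnd1 (r = 0.532) and Kcnd3 (-0.21) had no counted relation. Kcnip1 (-0.68) and Kcnc4 (-0.79) went down with these markers. Of the strong inward rectifiers, Kcnj2 (0.822) and Kcnj4 (0.742) were among the 13, while Kcnj12 (0.504) and Kcnj14 (0.371) had no counted relation. Of the 17 genes called in a Q175 comparison, 6 went up with these markers, namely Kcnab1, Kcnip2, Kcnh4, Kcnj4 and Kcnk2, which fell with the allele, and Kcng1, which rose. Kcng1 thus rose with the markers over the 24 libraries after removing genotype means (r = 0.762, rho = 0.762, permutation p = 7e-05 for r). Without the 2 farthest libraries r was 0.689. The relation was not tested in each genotype alone. Between genotypes, Kcng1 was higher in Q175 at a lower marker sum. Another 3 called genes, Kcnip3, Kcnk1 and Kcna1, went up with cortical markers. Of these, Kcna1 also went down with projection neuron markers (r = -0.57, rho = -0.58), yet in Q175 it was lower at a lower sum. The remaining 8 called genes had no counted relation to either sum, among them Kcnq5, Kcnt1 and Kcnh8.

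**Figure D5:**
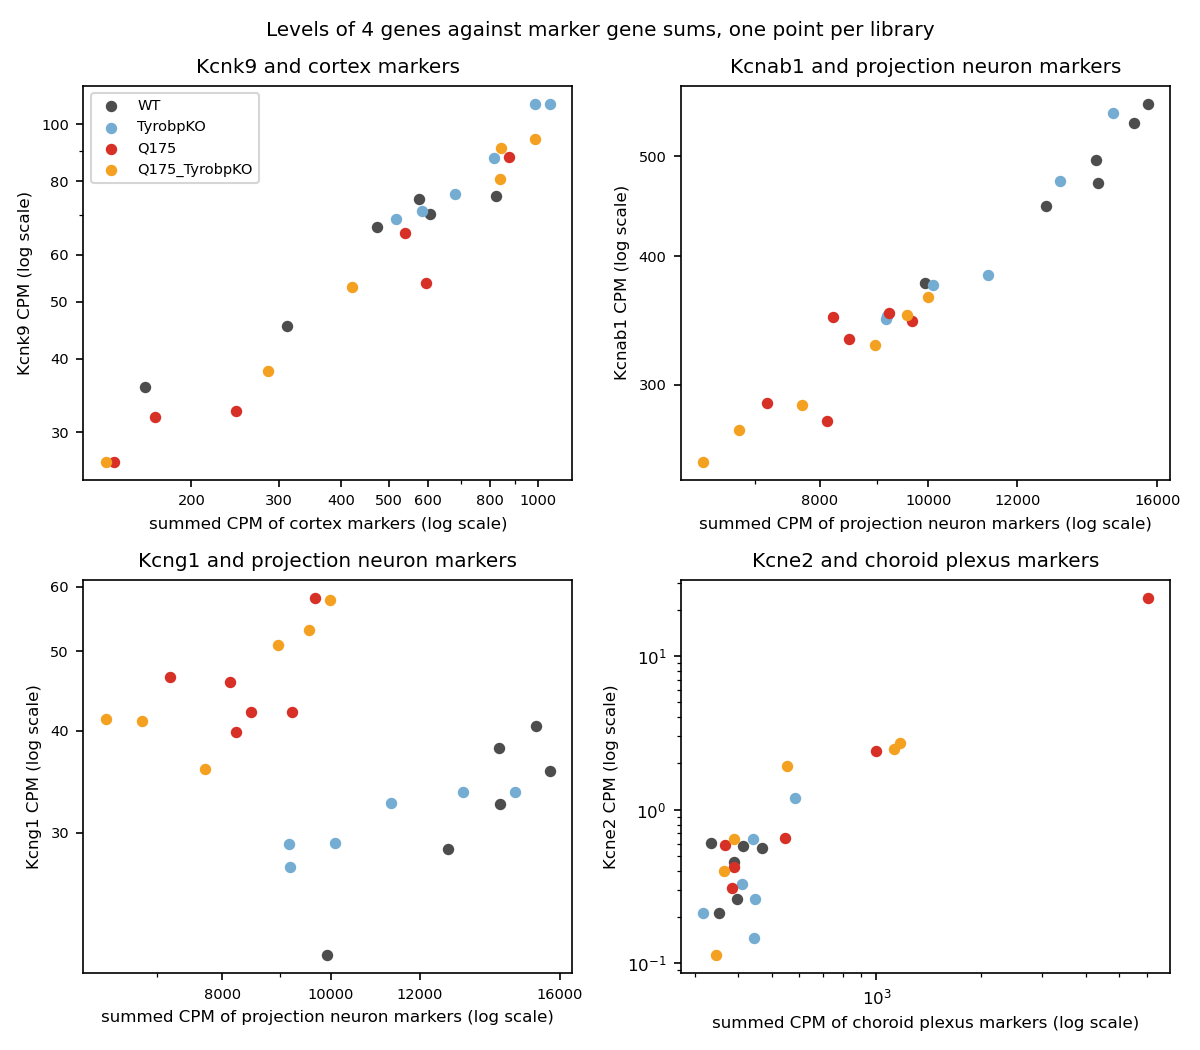
CPM of Kcnk9, Kcnab1, Kcng1 and Kcne2 (vertical, log axes) against the summed CPM of cortical, projection neuron and choroid plexus markers (horizontal, log axes), 1 point per library, coloured by genotype. Kcnk9 and Kcnab1 follow their markers along 1 line across genotypes. Kcng1 rises with its markers once genotype means are removed, with the Q175 libraries above. Kcne2 is highest in the library with 6022 CPM of choroid markers.

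With the log2 cortical marker sum as a term in the fit, a choice made after seeing the data, 22 of the 81 genes were called in Q175 against WT, 19 lower and 3 higher, beside 13.9% of all genes in that fit (7.62% lower and 6.27% higher). The added ones included Kcnj2 (-0.39 ± 0.0931, adjusted p = 0.00514), Kcna5 (-0.43 ± 0.104, adjusted p = 0.00453), Kcnd2 (-0.23 ± 0.0767, adjusted p = 0.0462) and Kcnq3 (-0.22 ± 0.0716, adjusted p = 0.0408), all lower. In Q175_TyrobpKO against TyrobpKO 13 were called, 10 lower and 3 higher, beside 8.81% of all genes (4.85% lower and 3.97% higher), among them Kcnj2 (-0.38 ± 0.0969, adjusted p = 0.0138) and Kcnj4 (-0.25 ± 0.0763, adjusted p = 0.0371). The marker sum is itself measured in these libraries. Without the 4 libraries high in choroid plexus markers, also chosen after seeing the data, Kcna1 (adjusted p = 0.0643), Kcnk1 (0.0684) and Kcnip3 (0.121) missed the threshold in Q175 against WT, where 13 of the 81 were called, beside 5.90% of all genes. Without the same 4 libraries, 1 gene was called in Q175_TyrobpKO against TyrobpKO, beside 2.45% of all genes. This was Kcnh8 (1.60, adjusted p = 0.0121), and the changes of Kcnh4 (-0.46, adjusted p = 0.124), Kcnip2 (-0.29, adjusted p = 0.139) and Kcng1 (0.52, adjusted p = 0.0688) kept their sign.

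Other proteins that work with the channels were given by a list of 32, of which 31 were tested. In Q175 against WT 8 were lower and 1 higher (29.03% called, beside 9.63% of all genes), with a median log2 fold change of -0.11. The lower ones included Gnb5 (-0.43 ± 0.0770, adjusted p = 0.000426), which pairs with either Rgs7 or Rgs9 in complexes that speed the end of G-protein signals, both of these partners, Gpr158, which anchors Rgs7 at the membrane, and Dlg4 (-0.31 ± 0.0599, adjusted p = 0.00111), the postsynaptic scaffold that binds Kcna and Kcnj subunits. The others were Dlg2, Lrrc26 and Nedd4l. The higher one was Dpp10 (0.38 ± 0.102, adjusted p = 0.0182), a partner of Kcnd channels. In Q175_TyrobpKO against TyrobpKO 0 of the 31 were called by edgeR, with Gpr158 nearest (-0.27 ± 0.0850, adjusted p = 0.0594).

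Of 15 potassium pump and cotransporter genes, 2 fell in Q175 against WT (13.33%, near the 9.63% of all genes called), among them the astrocytic pump subunit Atp1b2 (297.7 CPM ± 21.3 in WT and 254.5 ± 7.98 in Q175, -0.23 ± 0.0590, adjusted p = 0.0131), whose libraries did not overlap. In Q175_TyrobpKO against TyrobpKO 3 fell and 1 rose (26.67%, beside 5.86% of all genes), the lower ones including Atp1b2 (-0.29 ± 0.0590, adjusted p = 0.00304) and Atp1b3 (-0.26 ± 0.0545, adjusted p = 0.00427). The astrocyte marker sum given above moved with Atp1b2 in both comparisons, and its part was not tested.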

How the data were processed

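RNA from the striatum of one hemisphere was extracted with Trizol and sequenced on an Illumina NovaSeq, per the labels' protocols. The authors deposited raw read counts per gene for 24 libraries, as whole numbers without normalization. Per the submitters' processing notes, STAR, featureCounts and DESeq2 were used and the build is named GRCh38, a human build; 79 of the 81 genes have the coordinates of the mouse annotation GENCODE M21, and coordinates are given as deposited. Use of strand is not given in the sources used here.

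All counts entered one fit per test with edgeR 4.0.16 (R 4.3.3): TMM normalization, filterByExpr, genotype means plus sex, robust quasi-likelihood test. The biological coefficient of variation was 16.16%. CPM was TMM-scaled and RPKM used the deposited gene length. The sex comparison used 8 means, 1 per genotype and sex. Library pairs of a genotype differed by a chi-square of 6.89 to 42.59 per gene over 60 pairs, so all were kept apart. The labels do not say that animals came from separate litters, so p-values measure the spread between these animals. Scripts were tested on simulated data.

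The 81 genes, the lists and the tests were chosen with earlier results of these data known. Named were the 12 called genes of smallest p in each direction for Q175 against WT, 8 for Q175_TyrobpKO against TyrobpKO, called genes or else the 2 of smallest p elsewhere, the highest gene per subfamily, genes within 15 Mb of Tyrobp, and 2 per partner list; others were chosen after their values were seen. Alternatives were DESeq2 1.42.0, limma-voom (limma 3.58.1), DESeq2 size factors in edgeR, no filter, no sex term, each sex alone, only the libraries compared, each library left out, and no chromosome 7 genes. Genes on lists of markers are described by counts and summed CPM. RefSeq protein sequences were not used here. Some genes are counted in totals but are not reported here by name.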

Additional observations from a re-analysis of the deposited data

Results flagged for a closer look

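Within genotypes of 6 libraries, 22 named genes were examined for a library far from the others, 88 gene and genotype groups in all, and 7 stood apart by Dixon's criterion at the 95% level. Chance alone marks about 1 group in 20.

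Q175 replicate 2 was high in Kcng1 (58.17 CPM, the nearest other library being at 46.56), in Kcnh4 (44.45 CPM, nearest 35.23) and in Kcnj12 (17.61 CPM, nearest 13.58). This library had a cortical marker sum of 169.2 CPM and the highest projection neuron sum of its group, 9676 CPM. WT replicate 5 was low in Kcnh4 (51.27 CPM, nearest 63.3) and in Kcnt1 (262.4 CPM, nearest 303.7), with the highest cortical sum of WT, 824.3 CPM, and the lowest projection neuron sum, 9928 CPM. Q175 replicate 3, the library with 6022 CPM of choroid plexus markers, was low in Kcnk2 (84.2 CPM, nearest 104.5). Q175_TyrobpKO replicate 5 was low in Kcnh8 (0.7985 CPM, nearest 1.459). The part of tissue content in these values was not tested.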

How the results depend on the processing

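With Tyrobp intact, 10 of the 81 genes were called in males alone and 1 (Kcnh4) in females alone, where 0 were higher in either sex and 1 was lower in females; each sex has 3 animals per genotype. Leaving out 1 library gave 12 to 17 calls (2 to 3 higher, 10 to 15 lower). In TyrobpKO against WT, males alone gave 1 call, lower. Without Tyrobp, males alone gave 2 calls and 0 lower, females alone 3 calls, all 3 lower and 0 higher, no filter on low counts 5 lower, and leaving out the 4 libraries high in choroid plexus markers 1 call, 1 higher and 0 lower. There, leaving out 1 library gave 4 to 11 calls (2 higher throughout, 2 to 9 lower). Without TyrobpKO replicate 1 or 3, or Q175_TyrobpKO replicate 2 or 6, 5 were lower, without Q175_TyrobpKO replicate 4, 4, without TyrobpKO replicate 6, 3, and without TyrobpKO replicate 5, 2. Why these counts moved was not tested, though fewer animals entered each fit. The share of all genes called is not given beside the counts for each sex alone or with 1 library left out. Nothing particular to the channel genes is read from those counts. DESeq2, limma-voom, other size factors, no sex term, the compared libraries alone and no chromosome 7 genes left each count within 1.5 times its value. Single calls were still lost or gained. Those gained included Kcnk13 in Q175 against WT, as given above, and Kcnj4 without Tyrobp with the 12 compared libraries alone. In Q175 against WT, Kcnip3 (adjusted p = 0.0976 and 0.0935) and Kcnk5 (0.0648 and 0.0901) missed the threshold with no filter and with the 12 compared libraries alone, and Kcna1 (0.0566) with those alone. Without Tyrobp, Kcnk13 missed it with limma-voom, no filter, no sex term and the 12 alone (0.0509 to 0.0547), Kcnab1 with no filter and the 12 alone (0.0930 and 0.0804), and Kcnip3 with no filter (0.0914). No log2 fold change of a named gene turned sign with a call. Counts of genes with a marker relation were 40 and 39 without the 4 libraries, beside 40 and 46.

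No paired analysis was possible because the labels name no litter or other unit shared between genotypes. They also carry no replicate numbers, and those used here follow the order of the sample records.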
